A study of Homo sapiens with 6 samples.

Results

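The BCL2 family decides whether the outer membrane of the mitochondrion stays closed or opens during apoptosis, and 10 of its genes were followed here in SK-MEL-28 cells, an established human melanoma line. They were chosen by name and role, with earlier results of these data known, as 4 antiapoptotic genes (BCL2, BCL2L1, MCL1 and BCL2A1), 2 pore-forming effectors (BAX and BAK1) and 4 BH3-only genes (BCL2L11, BID, BBC3 and PMAIP1), out of 60504 genes in the deposited count table. RNA-seq was performed on 3 libraries labelled EV, from cells given an empty plasmid, and 3 libraries labelled HDAC8, from cells given an HDAC8 plasmid. Both groups share the parental line and no drug or stress treatment is named for either, and the Methods describe Lipofectamine transfection and maintenance in hygromycin without stating how many clones the cultures came from. The labels number biological replicates 1 to 3 in each group without stating separate transfections, so the p-values measure only the spread between these samples. The study asked how forced HDAC8 expression changes the transcription of melanoma cells, whose survival under stress and BRAF-MEK inhibition was assayed apart from these data.

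Antiapoptotic proteins hold BAX and BAK1 in check by binding them and by binding the BH3-only proteins. BH3-only proteins respond to stress, either by occupying the antiapoptotic proteins or by activating BAX and BAK1, and the opened membrane then releases cytochrome c, which starts the caspase cascade. In pigment cells BCL2A1 and BCL2 are known transcriptional targets of the lineage factor MITF, and BIM, the product of BCL2L11, accumulates when BRAF-MEK signalling is blocked.

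Among the 10 members, BCL2A1, BCL2L1 and BCL2L11 were lower where the label read HDAC8 and 0 members were higher, with edgeR's quasi-likelihood test, 16195 genes tested and an adjusted p threshold of 0.05. BCL2A1 fell by 47.0%, BCL2L1 by 22.5% and BCL2L11, a proapoptotic gene, by 21.3%, so the genes that fell came from both sides of the pathway. The other 7 members did not pass, and DESeq2 called the same numbers. At an unadjusted p below 0.05, 5 members were lower, the called ones among them, and 0 were higher. The exact share of all tested genes at an unadjusted p was not computed. BOK, another family gene, had an unadjusted p of 0.0501 (edgeR) and ranked 5456 of 16195 genes by p. The unadjusted count of members is thus not to be set against the adjusted shares. At the adjusted p threshold of 0.05, 11.7% of all tested genes were lower and 11.1% were higher, and all 10 members had passed the filter on low counts.

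The label HDAC8 was not matched by the level of the HDAC8 gene, which was 14.5 ± 2.48 CPM (counts relative to the TMM-scaled library size; SD, n = 3) in the EV libraries and 14.3 ± 0.881 in the HDAC8 libraries (log2 fold change -0.024, SE 0.13, adjusted p = 0.924, edgeR). Whether plasmid reads were counted on that gene is not given in the sources used here, so each direction given rests on the labels alone, HDAC8 relative to EV. Library totals lay between 20850018 and 29822917 counts, at which 3 counts amounted to 0.102 to 0.148 CPM, taken as the floor. All 8 melanocytic markers were detected, and their summed level was 6430 to 6820 CPM in the EV libraries and 7460 to 7990 in the HDAC8 libraries, with 4 of them higher and 2 lower. The sum was mostly PMEL, at 4150 ± 152 CPM in the EV and 5250 ± 272 CPM in the HDAC8 libraries. DCT, a melanin enzyme, fell from 233 ± 10.7 to 68.3 ± 2.07 CPM. TYRP1, a related enzyme among the higher markers, was at 0.38 ± 0.155 and 1.3 ± 0.42 CPM, with only 5, 12 and 9 counts in the EV libraries. Summed markers of fibroblasts were at 38.9 to 40.9 CPM in the EV libraries and 51.9 to 56.1 in the HDAC8 libraries, mostly LUM, and those of keratinocytes (KRT1 and DSG3 at 0), leukocytes (CD3E at 0) and endothelial cells stayed at or below 10.1 CPM in every library. The part of these marker differences in the member values was not tested, and in bulk RNA fewer cells of a type and less RNA per cell cannot be told apart.

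The promoters of the members that fell are shown, with that of BAX, which held the most motif matches, because the genes differ in base composition and in the short motifs that lie next to their starts. Each sequence is the 250 bases before the RefSeq start on the coding strand, 5′ to 3′, in GRCh38.p14, and capitals mark matches to the M-box TCATGTG or the E-box CACGTG. MITF and related factors are known to bind both motifs.

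BCL2A1, chr15:79971197-79971446, minus strand: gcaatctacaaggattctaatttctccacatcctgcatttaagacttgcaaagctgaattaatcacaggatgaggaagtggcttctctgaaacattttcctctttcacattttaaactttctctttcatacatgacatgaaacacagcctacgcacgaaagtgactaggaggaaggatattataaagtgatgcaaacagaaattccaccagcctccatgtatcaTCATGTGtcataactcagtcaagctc

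BCL2L1, chr20:31723964-31724213, minus strand: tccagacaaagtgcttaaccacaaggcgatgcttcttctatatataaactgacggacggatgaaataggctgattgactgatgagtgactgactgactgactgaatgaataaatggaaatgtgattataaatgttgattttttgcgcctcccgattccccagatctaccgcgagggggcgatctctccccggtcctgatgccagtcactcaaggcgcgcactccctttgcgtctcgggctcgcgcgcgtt

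BCL2L11, chr2:111120664-111120913, plus strand: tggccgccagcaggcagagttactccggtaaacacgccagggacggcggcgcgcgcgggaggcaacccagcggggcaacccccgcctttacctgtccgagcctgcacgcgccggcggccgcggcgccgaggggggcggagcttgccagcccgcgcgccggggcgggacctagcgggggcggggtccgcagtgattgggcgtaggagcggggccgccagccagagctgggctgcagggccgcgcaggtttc

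BAX, chr19:48954625-48954874, plus strand: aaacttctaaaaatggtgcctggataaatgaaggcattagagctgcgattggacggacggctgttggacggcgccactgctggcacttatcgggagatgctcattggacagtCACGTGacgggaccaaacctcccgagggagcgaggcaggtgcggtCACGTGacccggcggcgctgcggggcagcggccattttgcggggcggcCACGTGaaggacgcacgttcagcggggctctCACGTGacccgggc

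The BCL2A1 promoter held 1 M-box, beginning 26 bases before the start, which contains a CATGTG E-box and was the sole match to TCATGTG among the 14 promoter entries of 9 members (MCL1 had no entry). Of 35116 RefSeq promoters of the same length, 2.52% held TCATGTG and 9.42% held CATGTG on either strand. The BAX promoter held 4 CACGTG E-boxes, beginning 138, 93, 45 and 14 bases before the start, where 6.34% of all promoters held at least 1. Among members not shown, BID held CACGTG 47 and 106 bases before the starts of overlapping entries, and CATGTG 163 bases before that of another. The BBC3 promoter held CACGTG 232 and the AP-1 motif 113 bases before its start. Both BCL2L1 entries, of which the upstream one is shown, and the BCL2L11 entry held no match to these motifs or to the AP-1 motif TGANTCA, which 6.57% of promoters held. GC content ranged from 38.8% for BCL2A1 to 62.8% for BAX and 76.8% for BCL2L11, beside a median of 58.0% over all promoters. A match describes the letters of a window and is no evidence of binding. The RefSeq start of BCL2L11 lies 1536 bases inside the GENCODE 44 gene.

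BCL2A1 (ENSG00000140379), which encodes the antiapoptotic protein BFL-1, lies on chromosome 15 from 79960892 to 79971196 on the minus strand. Its level was 37.1, 34.0 and 38.8 CPM in EV replicates 1 to 3 and 19.4, 22.7 and 16.3 CPM in HDAC8 replicates 1 to 3. The lowest EV library thus lay well above the highest HDAC8 library. The mean fell from 36.6 ± 2.46 to 19.4 ± 3.23 CPM (SD, n = 3), a log2 fold change of -0.92 (SE 0.11, 95% interval -1.16 to -0.68) with an adjusted p of 9.7e-05 from edgeR's quasi-likelihood test. It was the sole member past both the adjusted p and an absolute log2 fold change of 0.58, where 3.45% of all tested genes were lower and 4.07% were higher. By p it ranked 549 of 16195 genes. The values rest on 752 to 954 counts in the EV libraries and 377 to 571 in the HDAC8 libraries, and the coefficient of variation of 16.6% among the HDAC8 libraries exceeded the 4.68% that counting alone gives.

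BCL2L1 (ENSG00000171552, chromosome 20, 31664452 to 31723989, minus strand) encodes BCL-XL and, by splicing, a proapoptotic short form that gene counts do not separate. Its level was 97.7, 95.7 and 96.5 CPM in the EV libraries and 75.3, 78.6 and 71.0 CPM in the HDAC8 libraries. The groups did not overlap, and the EV libraries differed by only a few CPM. The log2 fold change was -0.37 (SE 0.056, 95% interval -0.49 to -0.25; adjusted p = 0.000528, edgeR). BCL2L1 was the sole member with estimated counts that were not whole in all 6 libraries, and its exons share 1735 bases with ABALON, an antisense RNA measured at 5.11 ± 1.09 CPM in the EV and 3.83 ± 0.854 CPM in the HDAC8 libraries (log2 fold change -0.41, adjusted p = 0.253). Whether the counting used strand is not given in the sources used here.

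MCL1 (ENSG00000143384, chromosome 1, 150560895 to 150579738, minus strand), a short-lived antiapoptotic protein's gene, had the most counts of the 10 members. Its level was 141, 133 and 133 CPM in the EV libraries and 124, 124 and 123 CPM in the HDAC8 libraries. All HDAC8 libraries lay below all EV libraries, by a small margin. The log2 fold change of -0.13 (SE 0.048, 95% interval -0.24 to -0.03) had an adjusted p of 0.0705 from edgeR's quasi-likelihood test. Of 11 refits with another normalization, tool, filter, replicate block or left-out library, MCL1 passed in 1. That refit required at least 10 counts in every library (adjusted p = 0.0495, edgeR), and the adjusted p was up to 0.251 in the others.

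BCL2 (ENSG00000171791, chromosome 18, 63123346 to 63320128, minus strand), the founding member, was at 26.3, 23.5 and 27.8 CPM in the EV libraries and 31.5, 26.3 and 25.7 CPM in the HDAC8 libraries. The groups overlapped, with HDAC8 replicate 1 the highest of the 6 libraries. Its log2 fold change of 0.11 (SE 0.099, 95% interval -0.11 to 0.33) had an adjusted p of 0.485 (edgeR). BCL2 was the sole antiapoptotic member with a positive estimate, which was 0.00313 without HDAC8 replicate 1 and 0.0427 without EV replicate 2.

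**Figure D1:**
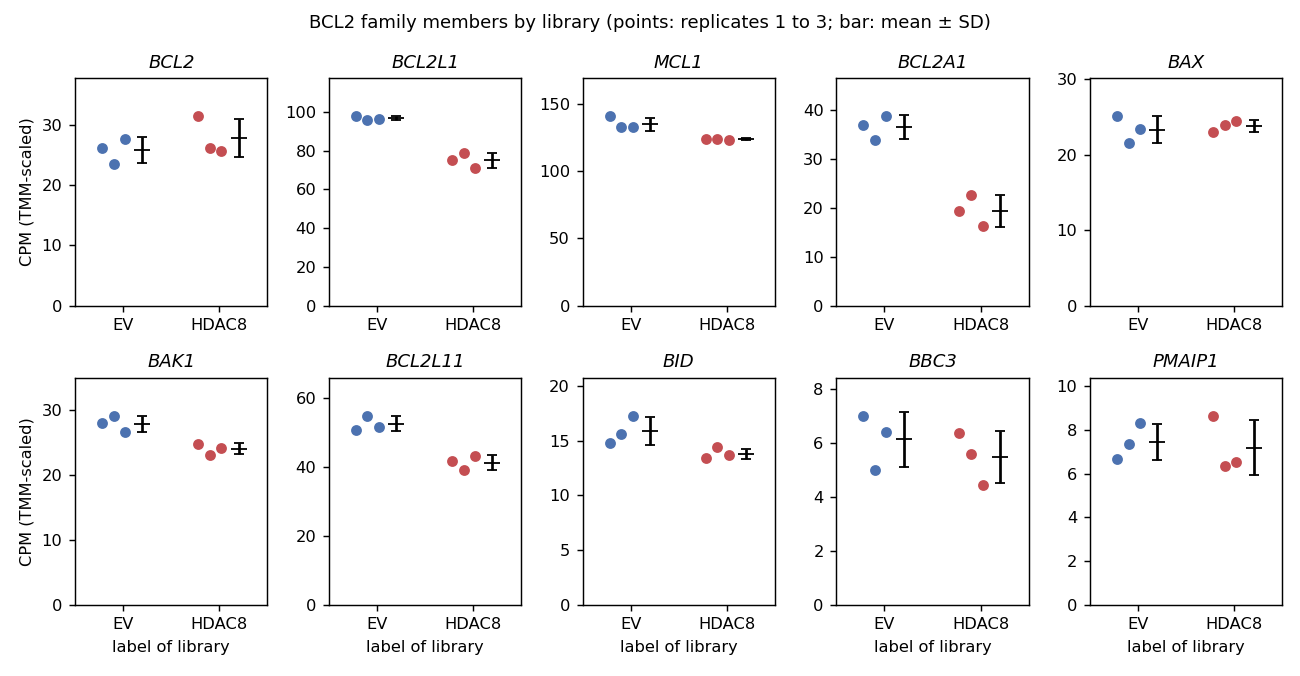
Level of each member in every library, in TMM-scaled CPM on axes that start at 0, with points for replicates 1 to 3 of the EV (blue) and HDAC8 (red) libraries and bars for the mean ± SD. The BCL2A1 points fall from 34.0 to 38.8 CPM in the EV libraries to 16.3 to 22.7 in the HDAC8 libraries, while those of BCL2, BAX, BBC3 and PMAIP1 overlap.

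Expressed per kilobase of exon, a scale that allows genes to be compared, BCL2A1 was the highest member in the EV libraries at 36.8 ± 2.47 CPM per kb, followed by BCL2L1 at 23.0 ± 0.245 and MCL1 at 21.8 ± 0.779. In the HDAC8 libraries MCL1 was at 19.9 ± 0.096, BCL2A1 at 19.5 ± 3.24 and BCL2L1 at 17.9 ± 0.908 CPM per kb, and BCL2A1 overlapped both of the others. BCL2A1 therefore led clearly in the EV libraries only. The order below was BAK1, BAX and BCL2L11 in both groups, at 12.6, 9.01 and 7.77 CPM per kb in the EV and 10.8, 9.2 and 6.1 in the HDAC8 libraries. BID, PMAIP1, BCL2 and BBC3 had means at or below 3.6 CPM per kb in both groups, where BID and PMAIP1 overlapped. With the longest transcript as the length, BAX rather than BAK1 was the higher effector, at 17.2 against 12.6 CPM per kb in the EV libraries. On that length MCL1 (29.8) and BCL2L1 (29.7) overlapped in the EV libraries. BID lay above PMAIP1 without overlap, at 6.37 against 3.92 in the EV and 5.54 against 3.79 in the HDAC8 libraries. The order within these pairs thus depends on the transcript that is counted.

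The make-up of the antiapoptotic transcripts shifted accordingly. BCL2A1 took 43.7, 42.6 and 45.6% of the summed antiapoptotic CPM per kb in the EV libraries and 32.6, 35.9 and 29.7% in the HDAC8 libraries. MCL1 took 26.0 ± 0.981% and 33.5 ± 2.27%, BCL2L1 27.5 ± 0.805% and 30.1 ± 0.638%, and BCL2 2.45 ± 0.127% and 3.72 ± 0.452% (SD, n = 3 each). For all 4 genes the shares of the groups did not overlap, and these shares are given as a description with no test, since 1 falling share lifts the others. The summed antiapoptotic level was 83.7 ± 3.04 CPM per kb in the EV and 59.5 ± 4.27 in the HDAC8 libraries. The shares and this sum cover the 4 chosen genes only. They leave out BCL2L2, also antiapoptotic, at 9.99 CPM per kb in the EV and 8.45 in the HDAC8 libraries. The summed level of the effectors was 21.6 ± 0.638 CPM per kb in the EV libraries and 19.7 to 20.4 in the HDAC8 libraries, and that of the BH3-only genes was 16.7 ± 0.641 and 14.2 ± 0.805 CPM per kb.

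**Figure D2:**
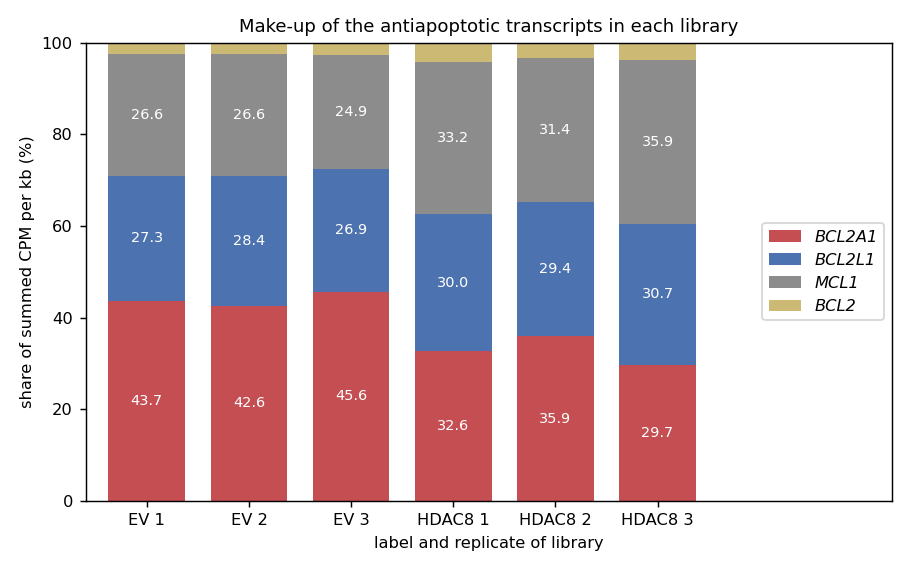
Share of each antiapoptotic gene in the summed CPM per kb of the class (y axis, percent) in each of the 6 libraries (x axis). The BCL2A1 segment takes 42.6 to 45.6% in the EV libraries and 29.7 to 35.9% in the HDAC8 libraries.

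The effectors BAX and BAK1, whose oligomers form the pore, did not pass the test. BAX (ENSG00000087088, chromosome 19, 48954815 to 48961798, plus strand) was at 25.1, 21.5 and 23.4 CPM in the EV libraries and 23.0, 23.9 and 24.5 CPM in the HDAC8 libraries. The groups overlapped, and the log2 fold change was 0.03 (SE 0.084, 95% interval -0.15 to 0.21; adjusted p = 0.85, edgeR), an interval that lies inside the fold threshold on both sides. BAK1 (ENSG00000030110, chromosome 6, 33572547 to 33580293, minus strand) was at 27.9, 29.1 and 26.5 CPM in the EV libraries and 24.8, 23.0 and 24.1 CPM in the HDAC8 libraries. The groups did not overlap, but the log2 fold change of -0.22 (SE 0.076, 95% interval -0.38 to -0.05) had an adjusted p of 0.0648 (edgeR).

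Among the BH3-only genes, BCL2L11 (ENSG00000153094, chromosome 2, 111119378 to 111168444, plus strand), which encodes BIM, was the highest per kilobase and the sole one that passed the test. Its level was 50.6, 54.8 and 51.6 CPM in the EV libraries and 41.6, 38.9 and 43.0 CPM in the HDAC8 libraries. The groups did not overlap, and the log2 fold change was -0.35 (SE 0.066, 95% interval -0.49 to -0.20; adjusted p = 0.00254, edgeR). An antisense RNA, MIR4435-2HG, shares 727 exon bases with it and was at 31.9, 26.5 and 30.5 CPM in the EV and 28.6, 28.3 and 33.1 CPM in the HDAC8 libraries (log2 fold change 0.017, adjusted p = 0.923, edgeR).

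BID (ENSG00000015475, chromosome 22, 17734138 to 17774770, minus strand), which links death receptors to mitochondria once cleaved by caspase-8, was at 14.8, 15.6 and 17.3 CPM in the EV libraries and 13.4, 14.4 and 13.7 CPM in the HDAC8 libraries. Its groups did not overlap, with a log2 fold change of -0.2 (95% interval -0.42 to 0.02; adjusted p = 0.179, edgeR). BBC3 (ENSG00000105327, chromosome 19, 47220822 to 47232766, minus strand) and PMAIP1 (ENSG00000141682, chromosome 18, 59899996 to 59904305, plus strand) encode PUMA and NOXA. BBC3 was at 7.01, 5.01 and 6.39 CPM in the EV libraries and 6.35, 5.58 and 4.44 CPM in the HDAC8 libraries (log2 fold change -0.17, 95% interval -0.6 to 0.26; adjusted p = 0.61, edgeR). PMAIP1 was at 6.69, 7.36 and 8.3 CPM in the EV libraries and 8.66, 6.37 and 6.55 CPM in the HDAC8 libraries (log2 fold change -0.046, 95% interval -0.41 to 0.32; adjusted p = 0.885, edgeR). Both overlapped between groups and had the fewest counts of the members, 103 to 187 for BBC3 and 129 to 255 for PMAIP1, and their intervals were the widest of the 10. For BBC3 the interval reaches past the fold threshold, and its coefficient of variation was 16.6% in the EV and 17.6% in the HDAC8 libraries, where counting alone gives 8.56% and 8.93%.

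Over the 10 members the estimates were negative for 8 and positive for 2, with a median log2 fold change of -0.19, beside a median of 0.0091 over all tested genes. In absolute terms their median was 0.19, the same as the 0.19 of all tested genes. The groups did not overlap for 6 members, all lower in the HDAC8 libraries, where 19.3% of all tested genes were lower and 18.7% higher without overlap. Neighbours were taken as 20 tested genes per member, 10 on each side in order along the chromosome whatever their distance. Their median log2 fold change was -0.052 around BCL2A1, 0.019 around BCL2L1 and -0.035 around BCL2L11. Around BCL2A1, 5 of these neighbours were lower and 3 were higher by the test.

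**Figure D3:**
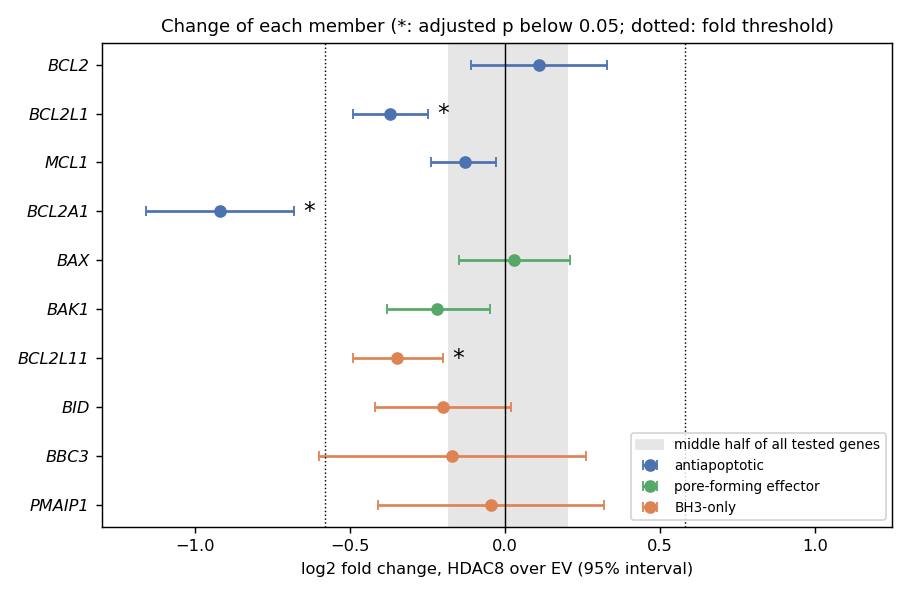
Log2 fold change of each member, HDAC8 over EV (x axis), with its 95% interval, coloured by class, and stars for an adjusted p below 0.05. The BCL2A1 interval, -1.16 to -0.68, lies beyond the dotted fold threshold of 0.58, and the grey band is the interquartile range of all tested genes, -0.18 to 0.2.

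The calls of BCL2A1, BCL2L1 and BCL2L11 were made in all 11 refits with another normalization, tool, filter, replicate block or left-out library, with adjusted p-values up to 0.00131, 0.00534 and 0.015. In a test against the fold threshold itself (edgeR's glmTreat), which asks for more than a nonzero change, BCL2A1 alone was called and the other 2 had an adjusted p of 1.0.

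Of the other 14 BCL2 family entries on a list by name, 10 were tested, and 2 of them were lower and 0 higher (median log2 fold change -0.04). At an unadjusted p below 0.05, 3 were lower and 2 higher, and with DESeq2 2 were lower and 0 higher. The tested entries include BCL2L2-PABPN1, which overlaps BCL2L2 and was added after values were seen, so that locus enters the list more than once. On this and the following lists, edgeR counts at an adjusted p below 0.05 stand beside 11.7% lower and 11.1% higher over all tested genes. Counts at an unadjusted p below 0.05 on these lists are not to be set against those shares. HRK, a BH3-only gene known mainly from neurons, fell from 12.9 ± 1.3 to 8.51 ± 0.404 CPM (log2 fold change -0.6, SE 0.12, adjusted p = 0.00402, edgeR) and was past both thresholds. HRK passed the adjusted p in all 11 refits. Its estimate fell short of the fold threshold without EV replicate 2 (-0.513) and without HDAC8 replicate 1 (-0.56), and glmTreat did not call it. BCL2L2, which encodes antiapoptotic BCL-W, fell from 48.4 ± 0.724 to 40.9 ± 1.96 CPM (log2 fold change -0.24, adjusted p = 0.0167, edgeR). Without EV replicate 1, EV replicate 3 or HDAC8 replicate 2 its adjusted p was 0.0575, 0.0707 or 0.0644. Its counts were not whole in all 6 libraries, as were those of the overlapping entry BCL2L2-PABPN1. That entry was at 9.89 ± 3.47 CPM in the EV and 9.55 ± 1.55 in the HDAC8 libraries (log2 fold change -0.058, adjusted p = 0.894, edgeR). The part of shared reads in the BCL2L2 values was not tested. BCL2L13 and BNIP3, mitophagy receptors and the most abundant of the list, had log2 fold changes of -0.1 and -0.022 (adjusted p = 0.137 and 0.819, edgeR). Of 11 refits, BCL2L13 passed only without HDAC8 replicate 3 (adjusted p = 0.0435, edgeR), with an adjusted p up to 0.327 in the others.

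Downstream of the pore, 2 of 10 genes of mitochondrial release and the apoptosome were higher, 1 was lower and 7 did not pass (median log2 fold change 0.071). VDAC1, the main outer-membrane channel, rose from 345 ± 14.2 to 421 ± 8.33 CPM (log2 fold change 0.29, adjusted p = 0.000677, edgeR), and HTRA2, a released protease, fell from 42.5 ± 3.52 to 32.8 ± 2.33 CPM (-0.37, adjusted p = 0.00631). AIFM1, a mitochondrial flavoprotein, rose by 0.23 on the log2 scale (adjusted p = 0.0427, edgeR), a call that was lost with DESeq2 (adjusted p = 0.0617), which left 1 higher gene on the list, and without any 1 library other than HDAC8 replicate 3 (adjusted p = 0.0554 to 0.172). VDAC2, which holds BAK1 at the membrane, had a log2 fold change of 0.056 (adjusted p = 0.566, edgeR).

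Of 8 caspase genes and substrates, 1 was higher and 1 lower (median 0.052). CASP10, an initiator caspase, rose from 6 counts in each EV library to 54, 25 and 31 counts in the HDAC8 libraries. That is from 0.265 ± 0.0181 to 1.47 ± 0.321 CPM (log2 fold change 2.46, SE 0.44, adjusted p = 0.00163, edgeR). At its EV level CASP10 passed the filter on low counts only through the HDAC8 libraries, where it was high. A filter of at least 10 counts in every library leaves it untested and the list with 0 higher genes. DFFA, the inhibitor of the nuclease that cuts DNA in apoptosis, fell from 187 ± 4.18 to 152 ± 2.89 CPM (log2 fold change -0.3, adjusted p = 0.000484, edgeR). CASP2, the most abundant caspase of the list, had a log2 fold change of -0.053 (adjusted p = 0.674, edgeR).

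Among 6 tested inhibitor of apoptosis genes, 2 were higher and 1 lower (median 0.14). BIRC5, which encodes survivin, a protein also needed for cell division, rose from 141 ± 5.29 to 168 ± 5.56 CPM (log2 fold change 0.25, adjusted p = 0.00323, edgeR). BIRC7, the melanoma IAP (0.21, adjusted p = 0.0343), and BIRC2, encoding cIAP1 (-0.23, adjusted p = 0.0484), passed in the edgeR test but not in DESeq2 (adjusted p = 0.0633 and 0.0873), and lost their calls without any 1 library other than HDAC8 replicate 1 for BIRC7 (adjusted p up to 0.119) and other than EV replicate 3 for BIRC2 (up to 0.201). BIRC6 had a log2 fold change of 0.069 (adjusted p = 0.301, edgeR). In the death receptor pathway 1 of 8 tested genes was higher and 0 were lower (median -0.13), with 2 higher and 1 lower at an unadjusted p below 0.05 and 1 and 0 with DESeq2. That gene, CFLAR, which encodes the caspase-8 inhibitor FLIP, rose from 37.8 ± 2.75 to 45.3 ± 2.2 CPM (log2 fold change 0.26, adjusted p = 0.0231, edgeR), and its adjusted p was 0.0636 to 0.113 without EV replicate 1, EV replicate 3, HDAC8 replicate 2 or HDAC8 replicate 3. FADD and TNFRSF10B, an adaptor and a TRAIL receptor, had log2 fold changes of 0.14 and -0.14 (adjusted p = 0.0875 and 0.122, edgeR). Of 11 refits, FADD passed only without HDAC8 replicate 1 (0.182, adjusted p = 0.0352, edgeR), with an adjusted p up to 0.306 in the others.

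Over these 5 lists, 6 of 42 tested genes were higher and 5 lower, with a median log2 fold change of 0.011. These counts lie near the shares over all tested genes, 11.1% higher and 11.7% lower. The count of higher genes was 5 with at least 10 counts in every library, where CASP10 was untested. It was 3 without EV replicate 1, EV replicate 3 or HDAC8 replicate 2, and that of lower genes was 3 without HDAC8 replicate 2. Each single list moved by at most 1 gene per direction when a library was left out.

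**Figure D4:**
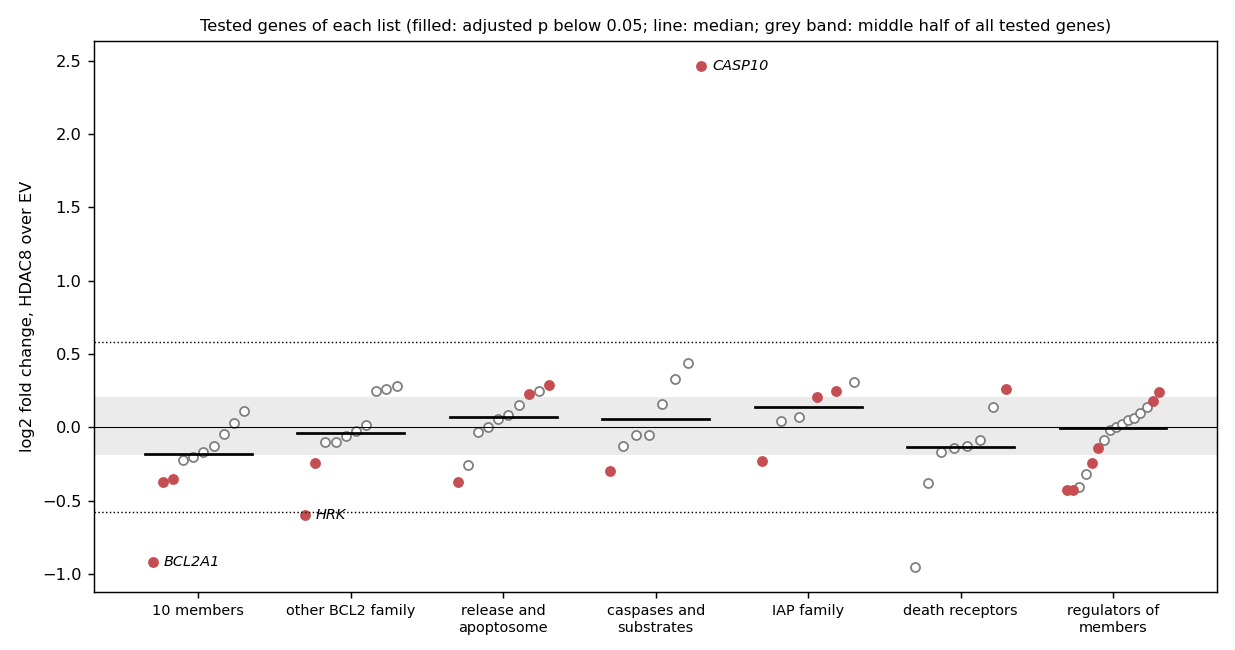
Log2 fold change, HDAC8 over EV (y axis), of every tested gene of the 10 members and 6 lists (x axis), filled where the adjusted p was below 0.05, with a line at each median, dotted lines at the fold threshold and a grey band for the interquartile range of all tested genes. The member median lies at -0.19 and that of the inhibitor of apoptosis genes at 0.14. CASP10, with 6 counts in each EV library, lies farthest from 0 at 2.46.

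Of 16 genes known to regulate members, 2 were higher, 4 lower and 10 not past the test (median -0.0068), beside 11.1% higher and 11.7% lower over all tested genes. MITF fell from 947 ± 18.8 to 859 ± 28.3 CPM (log2 fold change -0.14, SE 0.041, adjusted p = 0.0263, edgeR), and its adjusted p was 0.0878 without EV replicate 1, 0.117 without EV replicate 3 and 0.0824 in the fit with the replicate block. TP73, a transcription factor that can activate BBC3, fell from 31.5 to 23.4 CPM (log2 fold change -0.43, SE 0.074, adjusted p = 0.0013, edgeR). STAT3, which can activate BCL2L1 and MCL1, fell from 182 ± 11 to 154 ± 0.488 CPM (-0.24, adjusted p = 0.00578), whereas ATF4, a stress factor upstream of BBC3 and PMAIP1, rose from 173 ± 4.52 to 203 ± 7.32 CPM (0.24, adjusted p = 0.00371). USP9X, which removes ubiquitin from MCL1, rose from 309 ± 3.93 to 350 ± 3.63 CPM (0.18, adjusted p = 0.00698), and HUWE1, a ubiquitin ligase of MCL1, had a log2 fold change of 0.1 (adjusted p = 0.118, edgeR).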

How the data were processed

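RNA-seq of SK-MEL-28 cells was analysed, 3 libraries per label. Per the labels, RNA was purified with the Aurum kit, depleted of ribosomal RNA and made into stranded NEBNext libraries, whereas the Methods name other kits. The authors trimmed reads with Trimmomatic, aligned them with STAR and deposited RSEM expected counts per Ensembl gene on GRCh38, with no normalization. They also deposited a table of a log2 fold change, a p-value and a value per group, headed Ctrl and Test, which was not used.

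Counts were rounded, filtered with filterByExpr to 16195 genes, scaled by TMM and tested for HDAC8 over EV by glmQLFit and glmQLFTest of edgeR 4.0.16 (R 4.3.3), with no term for replicate number. Adjusted p is Benjamini-Hochberg over all of them, with thresholds of 0.05 and 0.58 (absolute log2 fold change). SE is the log2 fold change over the root of F. The code was tested on simulated data. Alternatives were upper-quartile factors, DESeq2 1.42.0, no filter on low counts, at least 10 counts in every library, the replicate number as a block, each library left out and glmTreat. No replicates were identical or within sampling noise (chi-square per degree of freedom 4.59 to 17.4). Gene positions and lengths are from GENCODE 44, promoters from RefSeq.

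The members and lists were chosen with earlier results of these data known. A regulator gene and a list tied to it are not reported here. Named genes are the 10 members, HDAC8, MITF, from each other apoptosis list up to 4 with the lowest adjusted p below 0.05 and up to 2 with the highest mean CPM, and from every list any gene past both thresholds. LUM, PMEL, BCL2L2-PABPN1 and the antisense RNAs were added after values were seen. No molecular identifiers are named in the sources, so floors cover counting error only.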

Additional observations from a re-analysis of the deposited data

How the results depend on the processing

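BCL2A1, BCL2L1 and BCL2L11 kept their direction in every alternative. With glmTreat, which tests against the fold threshold and so calls fewer genes by construction, 316 genes were higher and 237 lower (without it, 1790 and 1891, or 659 and 559 past both thresholds), 1 member was lower, 1 other apoptosis gene was higher and 0 were lower, and BCL2L1 (-0.367) and BCL2L11 (-0.346) were no longer called. With at least 10 counts in every library MCL1 was called (-0.136, adjusted p = 0.0495, edgeR); the cause was not tested. Leaving out each library in turn gave 3 to 7 higher and 3 to 5 lower other apoptosis genes, and estimates that crossed 0 without passing the test for BAX (-0.027 to 0.082), PMAIP1 (-0.21 to 0.0376), HDAC8 (-0.16 to 0.0797), BNIP3 (-0.0484 to 0.00619) and CASP2 (-0.112 to 0.0194). With the longest transcript as length the BCL2A1 share was 41.8% in the EV and 30.7% in the HDAC8 libraries.

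The replicate block gave 1496 higher and 1587 lower genes and again called BCL2A1, BCL2L1 and BCL2L11 (adjusted p = 0.000656, 0.0025 and 0.00968, edgeR). The numbers were not treated as pairing the samples, since deviations of same-numbered libraries correlated at -0.0264, -0.0906 and 0.0064 across 10253 genes. Among named genes MITF, AIFM1, BIRC7 and BIRC2 did not pass with the block. BBC3 and PMAIP1 had the fewest counts of the members, 103 to 255 per library, and spread between replicates beyond that of counting.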
